A study of Mus musculus with 36 samples.

Results

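The genes described here are 10 cyclins and cyclin-dependent kinases (CDKs): Ccna2, Ccnb1, Ccnb2, Ccnd1, Ccnd2, Ccne1, Ccne2, Ccnf, Cdk1 and Cdk2. They were taken by symbol, with earlier results of these data known, from a count table of 18120 genes in female mice and one of 18295 genes in male mice, and all 10 were found in both. Lung RNA was sequenced from 36 wild-type C57BL/6 mice aged 8 weeks at the first dose, with 6 treatment groups of 3 females and 3 males. The groups were saline (the control), oil, the dispersants Corexit 9527 and Corexit 9500 alone, and each dispersant with oil (9527+oil and 9500+oil). The oil was MC252 crude from the Deepwater Horizon spill, and Corexit 9500 and Corexit 9527 are commercial mixtures sprayed on oil slicks to disperse them. Each treated mouse received 50 µL of a 0.1 dilution of the material shaken in a salt solution, which the study calls a saline-accommodated fraction (SAF, 0.1 WAF in the labels), by aspiration from the throat on days 0, 7 and 13, and lungs were taken on day 14. Per the study's methods only the oil sample was a drawn-off saline phase, while the 4 preparations with a dispersant hardly separated and were given as the whole mixture. Saline mice received the carrier alone on the same days. Per the study's methods the combined mixtures held as much dispersant per volume of saline as the dispersant alone, the left lung gave the RNA, and each library came from 1 mouse. The question for these genes was whether oil, either dispersant or their combination changed the transcripts that drive the cell cycle, and whether female and male mice differed.

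A cyclin is the regulatory partner that switches on a CDK, a protein kinase, and the cyclins of DNA synthesis and mitosis are made and destroyed once in every round of division. The D cyclins answer growth signals and act first, the E cyclins with Cdk2 start DNA synthesis, cyclin A2 carries DNA synthesis through to mitosis, and the B cyclins with Cdk1 drive mitosis. Few cells divide in the adult lung at rest, and division rises there when epithelium, endothelium or resident macrophages are replaced after injury.

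The 36 libraries held 17501180 to 30011557 counts. In 32 of them, 5.27% to 11.3% of counts fell on mitochondrial genes, while 4 female libraries (saline mouse 3, oil mouse 6, Corexit 9527 mouse 11 and 9500+oil mouse 14) had 20.7% to 45.1% there. The members did not behave alike in these 4 libraries. Ccne2 stood at 2.61 to 3.12 times the mean of the other mice of its group in each of the 4. Cdk2 stood at 0.435 to 0.551 times that mean and Ccnf at 0 to 0.791 times. Others went both ways, as Ccne1 at 0 to 1.70 times and Ccnb2 at 0.861 to 2.35 times. Saline mouse 3 had no count of Ccne1 or Ccnf, which allows up to 0.352 CPM (counts scaled for library size) for each (3 counts, counting error only). The tests that held any of these libraries were repeated without them, which leaves 2 saline females and 2 females each of oil, Corexit 9527 and 9500+oil, and the counts and folds that moved are given beside each result. Lung epithelium was plain in every library: Sftpc, the surfactant protein of alveolar type 2 cells, was at 3588 CPM or more, and Scgb1a1, the club cell secretory protein, at 6220 CPM or more. In whole lung, fewer cells of a type and less RNA per cell cannot be told apart.

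Levels were set by CPM, and between genes by CPM per kilobase of exon, with all annotated exons of a gene joined. In saline mice the D cyclins were by far the most abundant members, with 33.3 ± 9.41 CPM per kilobase (SD, n = 3) of Ccnd1 in females and 47.9 ± 6.19 in males, and 18.9 ± 2.71 and 19.6 ± 2.59 of Ccnd2. Below them in females came Ccnb2 (3.94 ± 1.84), Ccna2 (2.79 ± 0.595), Ccne2 (2.27 ± 1.64), Cdk2 (2.00 ± 0.674), Ccnb1 (1.03 ± 0.628), Cdk1 (0.743 ± 0.0902), Ccne1 (0.485 ± 0.422) and Ccnf (0.276 ± 0.242), in CPM per kilobase. In males the order was Cdk2 (3.06 ± 0.430), Ccnb2 (2.60 ± 0.867), Ccna2 (1.82 ± 0.642), Ccne2 (1.06 ± 0.0670), Cdk1 (0.626 ± 0.134), Ccne1 (0.547 ± 0.0811), Ccnb1 (0.518 ± 0.105) and Ccnf (0.489 ± 0.214). Ccnd1 and Ccnd2 did not overlap each other or any other member in either sex, and among the rest each member's range overlapped that of its neighbour in the order, except between Ccne2 and Cdk1 in males. The order below the D cyclins depends on the length used. Joined exons of Cdk2 span 6219 bases and its longest transcript 2406, while both are 1531 for Ccnb2. The female order also holds saline mouse 3, with Ccne2 at 3.12 and Cdk2 at 0.544 times the mean of the other saline females. Raw counts ran from 905 to 8290 for Ccnd1 but from 27 to 376 for Cdk1 and from 0 to 183 for Ccne1, so the rare mitotic and E-type transcripts carry the wider counting error.

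**Figure D1:**
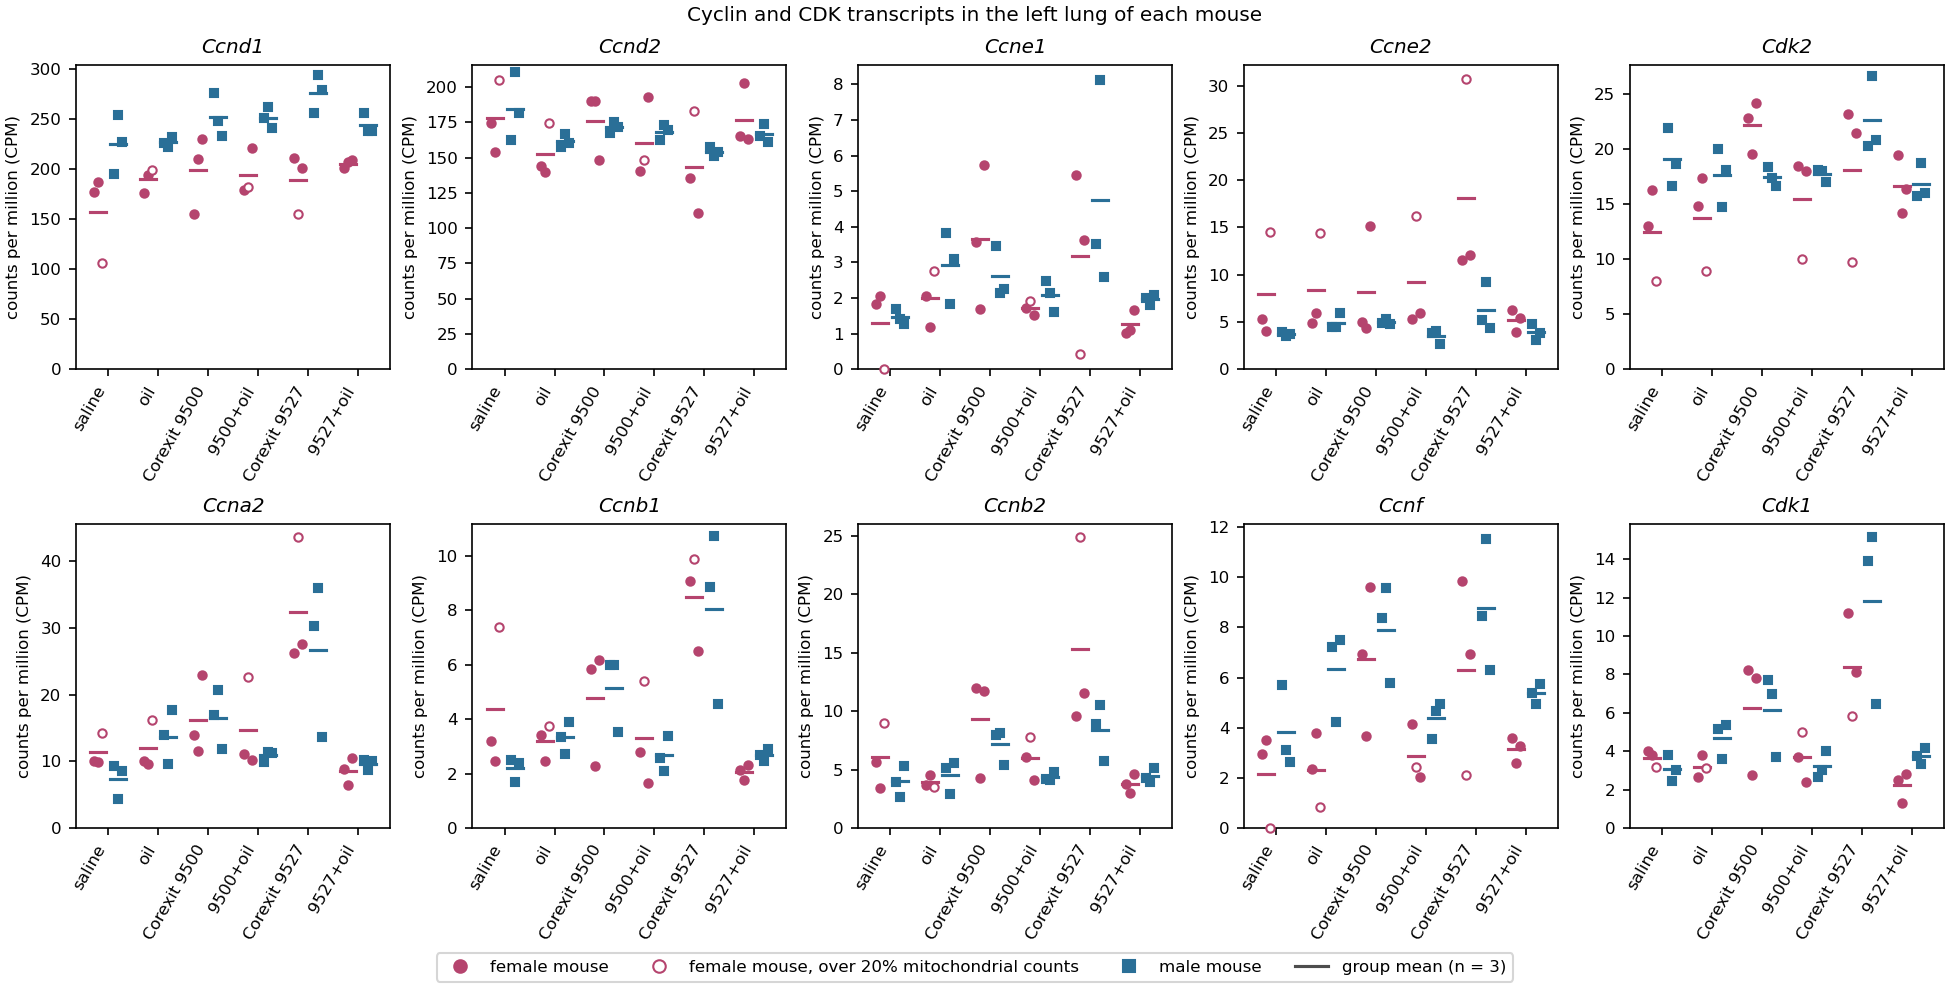
Level of each member in every mouse (vertical axis, CPM, linear from 0) by treatment (horizontal axis), with circles for females, squares for males, open circles for the 4 female libraries with over 20% mitochondrial counts, and a bar at each mean of 3 mice. Ccna2, Ccnb1, Ccnb2, Ccne2 and Cdk1 have their highest mean of each sex in the Corexit 9527 mice (Cdk1 up to 15.1 CPM, against at most 4.02 CPM in saline mice), while the D cyclins overlap between most treatments.

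The promoters of 4 mitotic members are shown because they share 2 kinds of motif known from cell cycle promoters. One is the cell cycle genes homology region (CHR), spelled TTTGAA or TTTAAA, which the MuvB complex binds, and the other is the CCAAT box, which NF-Y binds. The sequences are the 250 bases before the RefSeq start (GRCm38.p6), which may differ from the GENCODE start behind the gene coordinates given below, and RefSeq promoters were at hand for 6 members: these 4, Ccne1 and Cdk2. All run 5′ to 3′ along the gene, on the minus strand of the genome, with CHR and CCAAT matches on either strand in capitals (ATTGG is CCAAT on the other strand, and TTTAAA reads alike on both). They lie at chr10:69352913-69353162 (Cdk1), chr13:100786487-100786736 (Ccnb1), chr9:70421555-70421804 (Ccnb2) and chr17:24251410-24251659 (Ccnf).
Cdk1: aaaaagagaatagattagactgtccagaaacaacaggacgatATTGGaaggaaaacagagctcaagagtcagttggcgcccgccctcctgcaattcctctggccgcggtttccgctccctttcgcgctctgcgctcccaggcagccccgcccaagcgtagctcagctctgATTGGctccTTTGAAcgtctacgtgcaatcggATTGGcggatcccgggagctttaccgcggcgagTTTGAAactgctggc
Ccnb1: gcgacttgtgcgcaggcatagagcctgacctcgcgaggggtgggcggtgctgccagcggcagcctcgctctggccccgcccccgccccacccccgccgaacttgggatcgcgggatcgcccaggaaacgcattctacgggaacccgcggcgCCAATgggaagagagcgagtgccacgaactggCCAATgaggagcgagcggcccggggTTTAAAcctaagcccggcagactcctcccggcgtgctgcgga
Ccnb2: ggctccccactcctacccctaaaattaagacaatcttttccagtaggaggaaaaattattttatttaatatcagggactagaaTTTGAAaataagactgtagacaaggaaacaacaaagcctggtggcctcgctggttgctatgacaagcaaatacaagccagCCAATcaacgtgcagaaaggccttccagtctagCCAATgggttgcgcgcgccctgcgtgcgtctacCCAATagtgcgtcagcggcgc
Ccnf: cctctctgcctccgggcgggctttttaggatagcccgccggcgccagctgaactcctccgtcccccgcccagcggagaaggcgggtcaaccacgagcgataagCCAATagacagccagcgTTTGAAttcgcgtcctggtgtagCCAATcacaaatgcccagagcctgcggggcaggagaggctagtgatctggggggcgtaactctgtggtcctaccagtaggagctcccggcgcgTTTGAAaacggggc

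Each of the 4 windows held at least 1 CHR and at least 2 CCAAT boxes, as did 2.76% of the 27025 promoters of the same length. Taken singly, a CHR was in 28.1% of them and a CCAAT box in 37.5%. Cdk1 had 2 CHR and 3 CCAAT matches, Ccnb1 1 and 2, Ccnb2 1 and 3, and Ccnf 2 and 2. In Cdk1, the CHR at -71 to -66 lay between CCAAT boxes at -80 to -76 and -48 to -44, counted from the base before the start as -1. In Ccnb2 the 3 CCAAT boxes at -87, -54 and -21 were evenly spaced. Ccne1 had 1 CHR and no CCAAT box, and Cdk2 had 1 CCAAT box and no CHR. An E2F site, spelled TTTCCCGC, TTTCGCGC, TTTGCCGC or TTTGGCGC on either strand, was in 2.16% of promoters and matched in Cdk1 and in Cdk2. No match shared a base with a match of another motif. These matches are letters in a window and were not tested as binding sites.

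**Figure D2:**
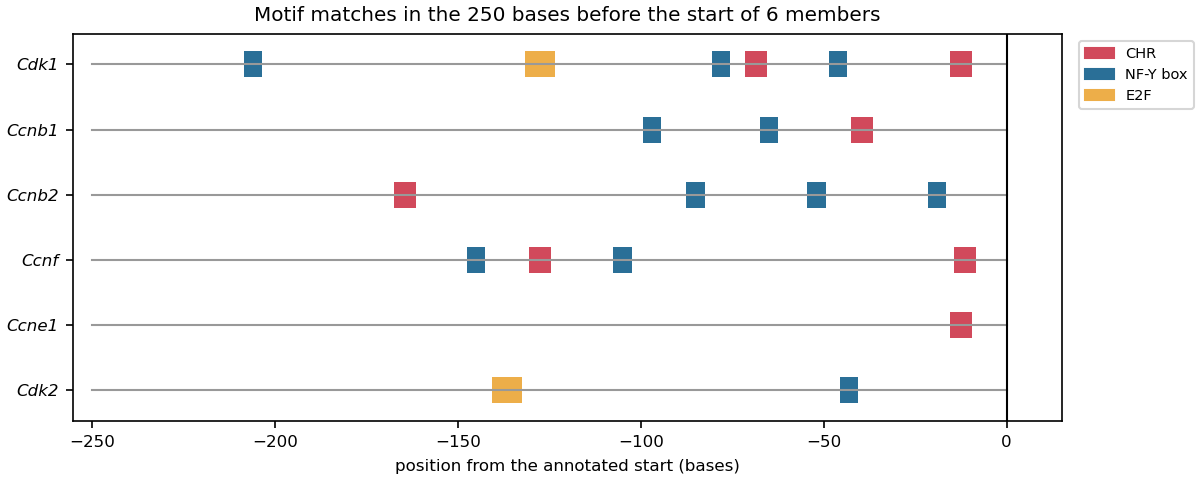
Position of each motif match (horizontal axis, bases before the RefSeq start at 0) in the 6 members with a RefSeq promoter (vertical axis), with CHR in red, CCAAT boxes (NF-Y boxes) in blue and E2F sites in yellow. Cdk1, Ccnb1, Ccnb2 and Ccnf carry both of the first 2 kinds, while Ccne1 and Cdk2 carry only 1 of them.

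The means of Ccna2, Ccnb1, Ccnb2, Ccne2 and Cdk1 were highest after Corexit 9527 in both sexes. Against saline over both sexes, 9 of the 10 members had a higher fitted level and 1 (Ccnd2) a lower one, with a median log2 fold change of 1.28 against 0.01 over all genes tested. By edgeR no member had an adjusted p under 0.05, as 5 of 15107 genes did (0.0331%). At an unadjusted p under 0.05, 5 members were higher (Ccna2, Ccnb1, Ccnb2, Ccne2 and Cdk1), against 2.27% of all genes, and 8 members were at that p without female Corexit 9527 mouse 11 (4.15% of genes, in either direction). Without the 2 libraries of this comparison that were high in mitochondrial counts (female saline mouse 3 and Corexit 9527 mouse 11), 7 of the 10 members passed the adjusted threshold (Ccna2, Ccnb1, Ccnb2, Ccne1, Ccne2, Ccnf and Cdk1), where 2.25% of 15278 genes did, and all 10 were at an unadjusted p under 0.05 (15.7% of genes). With all mice, DESeq2 called 3 members (0.666% of genes) and limma's voom with quality weights 7 (5.37%).

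Cdk1, the kinase of mitosis (chr10:69335146-69352938, minus strand, GRCm38), stood in saline females at 4.02, 3.81 and 3.16 CPM and in Corexit 9527 females at 11.2, 5.85 and 8.13 CPM. In males it stood at 3.78, 2.47 and 3.03 CPM after saline and at 13.9, 15.1 and 6.47 CPM after Corexit 9527. All 6 treated mice were above all saline mice of their sex, and the lowest treated female was mouse 11, one of the high mitochondrial libraries. The log2 fold change over both sexes was 1.56 ± 0.29 (SE, n = 6 and 6), or 2.95-fold, with an adjusted p of 0.208 in edgeR. Without the high mitochondrial libraries it was 1.68 ± 0.25, with an adjusted p of 0.00889.

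Ccna2 encodes cyclin A2 (chr3:36564865-36572150, minus strand), the partner first of Cdk2 and then of Cdk1. Its levels were 10.1, 9.88 and 14.2 CPM in saline females and 26.2, 43.6 and 27.6 CPM in Corexit 9527 females. Male mice had 9.25, 4.41 and 8.58 CPM after saline and 30.3, 36.0 and 13.7 CPM after Corexit 9527. Again no treated mouse reached down to a saline mouse of its sex, and mouse 12 was the lowest of the treated males, as it was for Cdk1. The log2 fold change of 1.67 ± 0.29 (3.19-fold) had the lowest adjusted p of the 10 members, 0.171 in edgeR, and 1.68 with an adjusted p of 0.00938 without the high mitochondrial libraries.

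The B cyclins are the partners of Cdk1 in mitosis. Ccnb1 (chr13:100778650-100786570, minus strand) was at 3.21, 2.48 and 7.38 CPM in saline females, 9.08, 9.90 and 6.49 CPM in Corexit 9527 females, 2.49, 1.68 and 2.39 CPM in saline males and 8.86, 10.7 and 4.55 CPM in Corexit 9527 males. The males did not overlap, while in females saline mouse 3, a high mitochondrial library, lay above the lowest treated mouse. Ccnb2 (chr9:70407692-70421547, minus strand) was at 5.64, 3.44 and 9.02 CPM in saline females, 9.62, 24.9 and 11.5 CPM in Corexit 9527 females, 3.93, 2.68 and 5.33 CPM in saline males and 8.86, 10.6 and 5.74 CPM in Corexit 9527 males. Neither sex overlapped for Ccnb2, though the gap between the highest saline and the lowest treated mouse was small. Their log2 fold changes were 1.41 ± 0.36 and 1.21 ± 0.34, with adjusted p of 0.546 and 0.660 in edgeR, and 1.71 and 1.14 with adjusted p of 0.00796 and 0.0297 without the high mitochondrial libraries.

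Ccnf encodes cyclin F (chr17:24222198-24251484, minus strand), which binds no CDK and instead marks proteins for destruction as part of a ubiquitin ligase. It stood at 2.96, 3.50 and 0 CPM in saline females, 9.85, 2.13 and 6.95 CPM in Corexit 9527 females, 5.72, 3.10 and 2.62 CPM in saline males and 8.46, 11.5 and 6.31 CPM in Corexit 9527 males. Males did not overlap, and in females the treated mouse below 2 saline mice was mouse 11. Over both sexes the log2 fold change was 1.36 ± 0.65 with an adjusted p near 1 (edgeR), and 1.28 with an adjusted p of 0.0231 without the high mitochondrial libraries.

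The E cyclins switch on Cdk2 at the start of DNA synthesis. Ccne1 (chr7:38097984-38107534, minus strand) was at 1.83, 2.04 and 0 CPM in saline females and at 5.45, 0.426 and 3.62 CPM in Corexit 9527 females, where mouse 11 again broke the order. In males it was at 1.69, 1.42 and 1.26 CPM after saline and at 3.51, 8.13 and 2.59 CPM after Corexit 9527, with no overlap. Ccne2 (chr4:11191351-11204779, plus strand) was at 3.93, 3.46 and 3.75 CPM in saline males and 5.21, 9.25 and 4.4 CPM in Corexit 9527 males, also without overlap, and at 5.28, 4.03 and 14.5 CPM in saline females and 11.6, 30.8 and 12.1 CPM in Corexit 9527 females. In females the highest value of each Ccne2 group came from its high mitochondrial library. The log2 fold changes were 1.48 ± 0.71 for Ccne1 and 0.97 ± 0.39 for Ccne2, and neither passed the edgeR test until those libraries were left out (1.51 for Ccne1 with an adjusted p of 0.0320, and 2.01-fold for Ccne2 with 0.0408).

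Cdk2 and the D cyclins had the smallest differences. Cdk2, the kinase of DNA synthesis (chr10:128697939-128705031, minus strand), was at 21.9, 16.6 and 18.6 CPM in saline males and 20.3, 26.6 and 20.8 CPM in Corexit 9527 males, which overlap. Ccnd1 (chr7:144929931-144939925, minus strand), a partner of Cdk4 and Cdk6 downstream of growth signals, was at 196, 254 and 227 CPM in saline males and 256, 295 and 279 CPM in Corexit 9527 males, just apart. Ccnd2 (chr6:127125162-127152193, minus strand), its close relative, was at 162, 211 and 181 CPM in saline males and 157, 151 and 154 CPM in Corexit 9527 males, the 1 member whose treated males all lay below saline, as did 9.48% of genes. In females all 3 overlapped: Cdk2 ran from 7.97 to 16.3 CPM after saline and from 9.69 to 23.1 CPM after Corexit 9527, Ccnd1 from 106 to 187 CPM and from 155 to 211 CPM, and Ccnd2 from 154 to 205 CPM and from 111 to 183 CPM. Over both sexes the log2 fold changes were 0.39 ± 0.25 for Cdk2, 0.28 ± 0.16 for Ccnd1 and -0.29 ± 0.15 for Ccnd2, with adjusted p near 1 in edgeR. Without the high mitochondrial libraries the same 3 were 0.39, 0.25 and -0.32, with adjusted p of 0.157, 0.175 and 0.110.

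Within males alone, 8 members were higher after Corexit 9527 at an unadjusted p under 0.05, against 7.96% of 14919 genes, and 1 member (Ccnd2) lower, against 5.78%. The largest male log2 fold changes were 1.94 ± 0.34 for Cdk1, 1.88 ± 0.35 for Ccnb1 and 1.85 ± 0.38 for Ccna2, with adjusted p of 0.0650, 0.0749 and 0.104 in edgeR, so none passed, where 0.114% of genes did. DESeq2 called 6 members in males (3.15% of genes), and edgeR called 3 (1.39%) once male Corexit 9527 mouse 12, the lowest of its group for 7 of the 8 higher members, was left out. In females alone 1 member, Ccna2, was higher at an unadjusted p under 0.05 (2.84-fold), against 0.267% of all genes, and none passed adjustment by edgeR, DESeq2 or voom. That count rested on saline mouse 3 and Corexit 9527 mouse 11. It was 4 without the first (1.02% of genes, in either direction), 2 without the second (0.325%), and 8 without both (all but the D cyclins, each higher, where 2.97% of 15297 genes were), a fit of 2 mice against 2. With all 6 females voom had 9 members at that p, where it had 11.2% of genes. Without both libraries the female log2 fold changes were 1.44 ± 0.19 for Ccna2, 1.46 ± 0.32 for Ccnb1 and 1.31 ± 0.28 for Cdk1, with adjusted p of 0.318, 0.451 and 0.434 in edgeR. The count of members whose 3 treated mice all lay above the 3 saline mice was 8 in males, where 10.7% of genes did so, and 3 in females (Ccna2, Ccnb2 and Cdk1), where 2.86% did. The difference between the sexes was tested as an interaction and passed for no member, where 0 of 15328 genes did. At an unadjusted p under 0.05 there were 0 of the 10 members (0.352% of genes), and also 0 without the high mitochondrial libraries (2.81%). The larger count in males was therefore not shown to be a difference between the sexes. In the test of all mice the male minus female difference in log2 fold change was 0.74 ± 0.56 for Cdk1 and 0.91 ± 0.69 for Ccnb1.

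**Figure D3:**
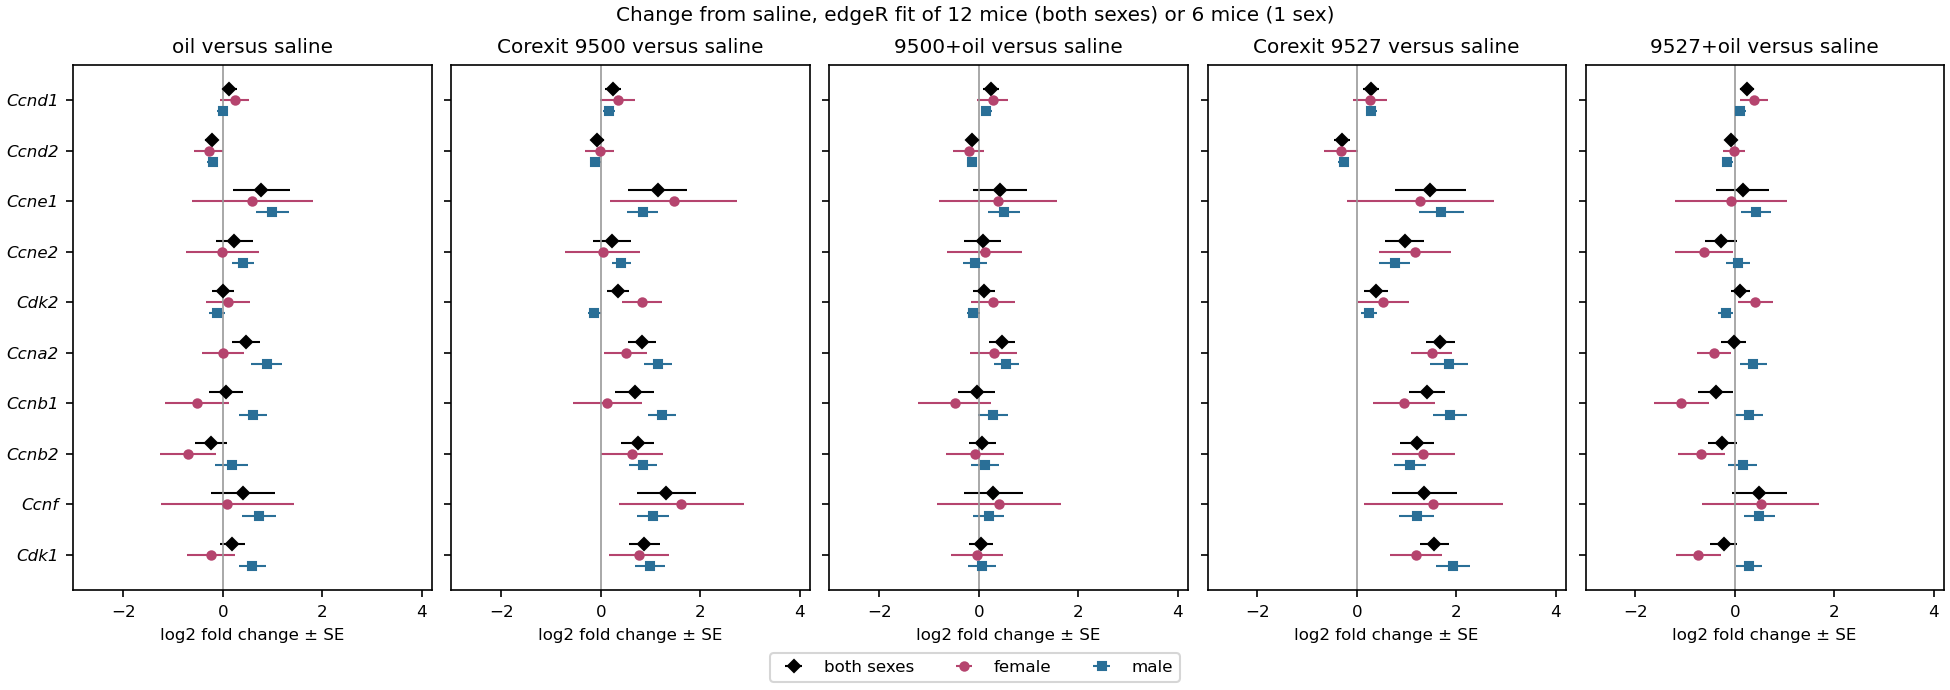
Log2 fold change from saline (horizontal axis) with its standard error for each member (vertical axis) after each of the 5 treatments, from the edgeR fit of both sexes (black), females (circles) and males (squares). The Corexit 9527 panel lies furthest right, from -0.29 for Ccnd2 to 1.67 for Ccna2 over both sexes, and the female error bars are the wider ones.

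No member passed the test for Corexit 9500 against saline, where 0 of 15211 genes did over both sexes. Over both sexes 9 of 10 members were higher and Ccnd2 lower (median log2 fold change 0.71 against 0.03 for all genes), and 4 members were higher at an unadjusted p under 0.05 against 1.29% of 15211 genes. These were Ccna2 (0.83 ± 0.27), Ccnb2 (0.74 ± 0.33), Ccnf (1.32 ± 0.60) and Cdk1 (0.88 ± 0.31), all with an adjusted p of 0.970 in edgeR, and DESeq2 and voom also called 0. The count of 4 fell to 2 without any 1 of 7 mice (female saline 1 or 2, male saline 2, female Corexit 9500 mouse 7 or 9, male Corexit 9500 mouse 7 or 8), where 1.09% to 3.18% of genes were at that p in either direction. It was 7 with all groups in 1 fit (5.78% of genes) and 8 with voom (11.5%). Of the others, Ccne1 was at 1.14 ± 0.60, Ccnb1 at 0.68 ± 0.39, Cdk2 at 0.35 ± 0.23, Ccnd1 at 0.25 ± 0.17, Ccne2 at 0.23 ± 0.39 and Ccnd2 at -0.07 ± 0.13. The Ccne2 value rested on female Corexit 9500 mouse 9, at 15.2 CPM against 4.94 and 4.38 CPM in the other 2, and was -0.10 without it. Without the high mitochondrial libraries Ccne2 was at 0.59, Cdk1 at 0.85 and Ccnf at 1.06, and Ccnb1 (2.02-fold) and Ccne1 (1.84-fold) joined the 4 at an unadjusted p under 0.05 (3.69% of genes higher), again with none past adjustment (edgeR). All comparisons with saline use the same 6 saline mice, so they are not independent of one another.

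In Corexit 9500 males, Cdk1 was at 7.72, 7.00 and 3.72 CPM, 2 mice well above the saline males and 1 within their range. Ccnb1 was at 5.99, 5.98 and 3.51 CPM and Ccnf at 8.36, 9.55 and 5.80 CPM, each mouse above every saline male. In Corexit 9500 females, Cdk1 was at 8.24, 2.74 and 7.81 CPM and Ccnb1 at 5.85, 2.29 and 6.16 CPM. Mouse 8 was below the saline mice for both, while the other 2 females were above all saline mice for Cdk1 but not for Ccnb1. In all, 6 members were higher in males at an unadjusted p under 0.05 (Ccna2 1.15 ± 0.29, Ccnb1 1.23 ± 0.29, Ccnb2 0.85 ± 0.28, Ccne1 0.85 ± 0.31, Ccnf 1.05 ± 0.32 and Cdk1 0.99 ± 0.31), against 6.35% of genes in either direction, and none passed in edgeR, where 1 of 15116 genes did. DESeq2 called 1 member in males (0.236% of genes). In females 0 were at that p, against 0.364% of genes, and edgeR (0 of 14839 genes), DESeq2 and voom called none. Without saline mouse 3, 1 female member was (Cdk2, 0.59 ± 0.22; 1.64% of genes). The 3 treated mice were all higher than the 3 saline mice for 6 members in males (6.39% of genes) and for Ccnf and Cdk2 in females (3.56%). The interaction with sex passed for none, where 0 of 15422 genes did. At an unadjusted p under 0.05 there was 1 member, Cdk2 (male minus female -0.95 ± 0.38), where 0.726% of genes were. Cdk2 was also the 1 member without saline mouse 3 (-0.72 ± 0.23, where 1.96% of genes were).

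No member passed the test for oil alone, where 0 of 15156 genes did over both sexes, 0 of 14837 in females and 1 of 14914 in males. Over both sexes 0 of 10 members were at an unadjusted p under 0.05 (0.435% of 15156 genes), the median log2 fold change was 0.16, and edgeR, DESeq2 and voom called none. Without the high mitochondrial libraries 1 member was (Ccnd2, -0.20 ± 0.085; 2.52% of genes). In males Ccna2 was at 13.9, 9.55 and 17.7 CPM and Ccne1 at 3.81, 1.84 and 3.11 CPM, each mouse above the saline males. These were the 2 members at an unadjusted p under 0.05 in males (log2 fold changes 0.88 ± 0.31 and 1.00 ± 0.34, adjusted p of 0.490 and 0.488 in edgeR), against 8.21% of genes. The count in males was unstable: it was 0 without oil mouse 6 (4.79% of genes), 1 without saline mouse 3 (6.41%) or oil mouse 4 (6.18%), and 5 without saline mouse 1 (8.43%) or oil mouse 5 (14.2%). With all mice it was 4 with at least 10 counts in every mouse (1218 of 14156 genes), 4 with all 6 groups in 1 fit (1284 of 15519) and 5 with voom (1639 of 14914). In females there were 0, against 0.108%. Separation of all oil mice above all saline mice held for 4 members in males (Ccna2, Ccnb1, Ccne1 and Ccne2; 7.42% of genes) and for none in females (2.89%). The interaction with sex had 0 members at an unadjusted p under 0.05 (1.65% of genes), and 1 without the high mitochondrial libraries (Ccne1, 1.25 ± 0.54; 5.98%).

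No member passed the test against saline for either combination, where over both sexes 0 of 15214 genes did for 9527+oil and 0 of 15105 for 9500+oil. For 9527+oil over both sexes 0 members were at an unadjusted p under 0.05 (2.94% of 15214 genes), with a median log2 fold change of -0.05, and for 9500+oil also 0 (0.391% of 15105 genes), with a median of 0.09. EdgeR, DESeq2 and voom called no member in either. Within each sex the counts were again 0, against 1.1% of genes in 9527+oil females, 5.54% in 9527+oil males, 0.155% in 9500+oil females and 9.22% in 9500+oil males. Leaving out saline mouse 1 made the count 1 in males of either combination (5.44% of genes for 9527+oil and 10.3% for 9500+oil), as did leaving out saline mouse 2 for 9500+oil (8.37%), and leaving out female saline mouse 3 made it 1 for 9500+oil over both sexes (1.78%). In 9527+oil females, Cdk1 was at 2.50, 1.33 and 2.82 CPM and Ccnb1 at 2.15, 1.75 and 2.32 CPM, below all 3 saline females for both, as were 7.2% of genes. Their log2 fold changes there were -0.73 ± 0.45 and -1.07 ± 0.55, with adjusted p of 0.914 in edgeR. The Ccnb1 value rested on saline mouse 3: it was -0.44 ± 0.28 (0.735-fold) without that mouse, and ran from -1.36 to -0.44 as each mouse was left out. Cdk1 was at -0.81 ± 0.33 without saline mouse 3, then the 1 member at an unadjusted p under 0.05 (12.3% of genes), with an adjusted p of 0.396 in edgeR. Members with every treated mouse above every saline mouse were Ccnd1 in 9527+oil females (10.7% of genes), Ccne1 in 9527+oil males (5.92%), Ccna2 in 9500+oil males (7.86%) and none in 9500+oil females (1.51%). In the interaction with sex, 1 member was at an unadjusted p under 0.05 for 9527+oil (Ccnb1, 1.35 ± 0.58, where 2.39% of genes were) and 0 for 9500+oil (0.509%). No member passed adjustment, where 0 of 15417 genes did for 9527+oil and 0 of 15318 for 9500+oil. Without saline mouse 3 the Ccnb1 difference was 0.74 ± 0.37 and no longer at that p, while Cdk1 (1.09 ± 0.42) and Ccne1 (1.05 ± 0.43) were (6.73% of genes).

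The effect of adding oil was tested directly, dispersant with oil against dispersant alone, with no saline mouse in the fit. Cdk1, Ccnb1 and Ccna2 fell with 9527+oil relative to Corexit 9527, the 3 members that passed an adjusted p of 0.05 in the edgeR test of the 12 mice, where 88 of 15189 genes did (0.579%). Ccnb1 changed by -1.80 ± 0.23 (0.288 times, adjusted p of 0.0190), Cdk1 by -1.78 ± 0.27 (0.291 times, 0.0260) and Ccna2 by -1.69 ± 0.25 (0.310 times, 0.0260). At an unadjusted p under 0.05, 7 members were lower, against 8.76% of genes: these 3 and Ccnb2 (-1.45 ± 0.31), Ccne1 (-1.30 ± 0.46), Ccne2 (-1.24 ± 0.34) and Ccnf (-0.85 ± 0.30). Cdk2 (-0.27 ± 0.20), Ccnd1 (-0.02 ± 0.11) and Ccnd2 (0.22 ± 0.13) were not.

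The single mice were as follows. With 9527+oil, Cdk1 was at 3.74, 3.36 and 4.19 CPM in males and 2.50, 1.33 and 2.82 CPM in females, each below the lowest Corexit 9527 mouse of its sex. Ccna2 was at 10.2, 8.64 and 10.0 CPM in 9527+oil males and 8.81, 6.37 and 10.5 CPM in 9527+oil females. Ccnb1 was at 2.70, 2.48 and 2.90 CPM in 9527+oil males. In females Ccnb1 was at 2.15, 1.75 and 2.32 CPM with 9527+oil. For these 3 genes no mouse given 9527+oil reached the lowest Corexit 9527 mouse of its sex. All 3 mice with oil lay below all 3 without for 7 members in males (9.09% of genes) and 5 in females (12.3%), while Ccnd2 in males lay above in all 3 (7.93% of genes). The 3 calls depended on single mice, while the direction of the changes did not. With 1 mouse left out the log2 fold change ran from -1.943 to -1.712 for Ccnb1, -1.923 to -1.646 for Cdk1 and -1.849 to -1.555 for Ccna2. No member passed without any 1 of 7 mice (female 9527+oil mice 16, 17 and 18, male 9527+oil mice 16 and 17, and male Corexit 9527 mice 10 and 11), where 0 to 5 of all genes passed, and 1 passed without female Corexit 9527 mouse 10 or 12 or male 9527+oil mouse 18, where 8 to 13 genes did. Without male Corexit 9527 mouse 12 the count was 4 (0.851% of genes), and without female Corexit 9527 mouse 11, the high mitochondrial library, it was 8. Those 8 were all members but the D cyclins, where 6.82% of 15393 genes passed, with changes from -0.43 for Cdk2 to -1.86 for Cdk1.

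**Figure D4:**
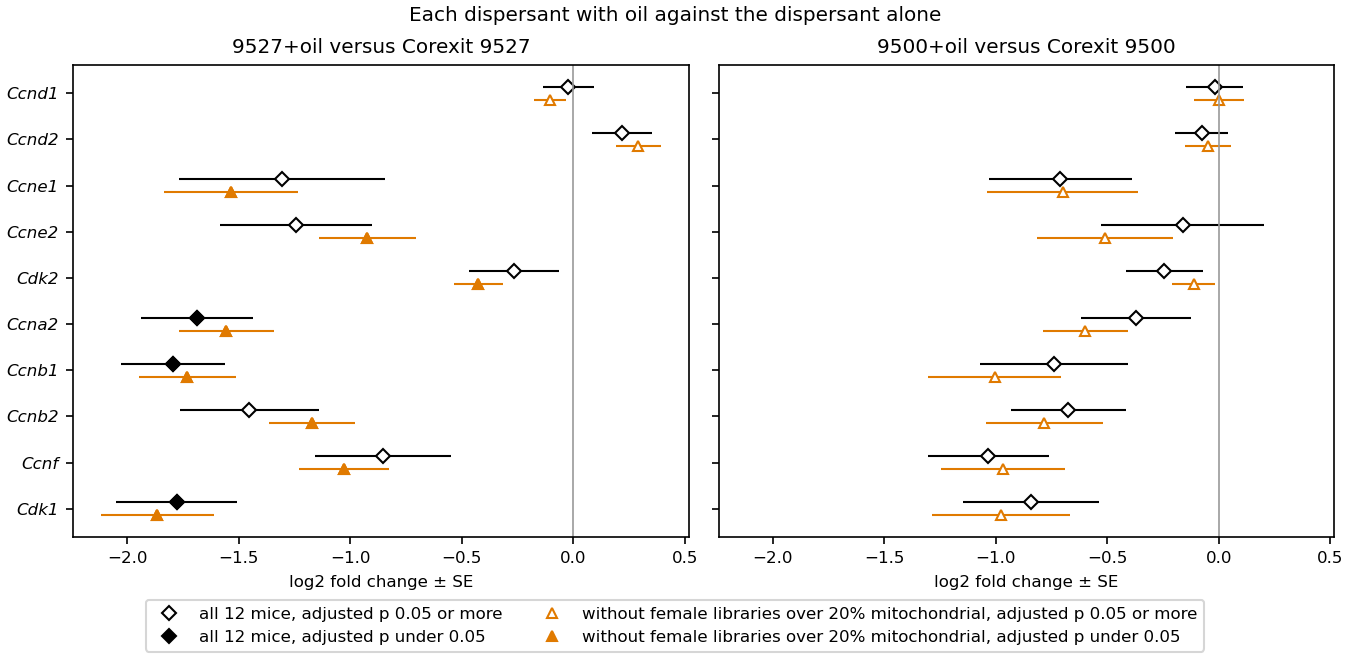
Log2 fold change (horizontal axis) with its standard error for each member (vertical axis) of each dispersant with oil against the dispersant alone, over both sexes, from all 12 mice (diamonds) and without the high mitochondrial libraries (triangles), with filled symbols for an adjusted p under 0.05. On the left 3 filled diamonds lie between -1.80 and -1.69 and 8 triangles are filled, and on the right no symbol is filled.

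No member passed for 9500+oil against Corexit 9500, where 0 of 15156 genes did. All 10 members had a lower fitted level with oil (median log2 fold change -0.52 against 0.02 for all genes), and 5 were at an unadjusted p under 0.05, against 1.37% of 15156 genes. These were Ccnf (-1.03 ± 0.27), Cdk1 (-0.84 ± 0.31), Ccnb1 (-0.74 ± 0.33), Ccne1 (-0.71 ± 0.32) and Ccnb2 (-0.68 ± 0.26). Their adjusted p was 0.999 in edgeR, and DESeq2 and voom called none. The count of 5 fell to 2 without female Corexit 9500 mouse 9 (1.2% of genes, in either direction) or female 9500+oil mouse 15 (1.84%), and to 3 without any 1 of 5 other mice (1.33% to 2.4%). It was again 5 without the high mitochondrial library but with Ccna2 (-0.60 ± 0.19) in place of Ccne1 (2.07% of genes lower). All mice with oil lay below all mice without for 5 members in males (5.26% of genes) and 1, Cdk2, in females (2.09%). Between the dispersants themselves, Corexit 9527 against Corexit 9500, 2 members were higher at an unadjusted p under 0.05 (Ccna2 0.85 ± 0.27 and Ccnb1 0.73 ± 0.30), against 2.1% of 15184 genes, with an adjusted p of 0.794 in edgeR. DESeq2 and voom called none. The count at an unadjusted p under 0.05 ran from 1 to 4 as single mice were left out (1.43% to 6.08% of genes). It was 4 without the high mitochondrial library, Corexit 9527 mouse 11 (Ccna2, Ccnb1 and Cdk1 higher and Ccnd2 lower, where 5.15% of genes were at that p in either direction).

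Each member was set against Cdk1 over the 18 mice of a sex, and the strength of the relation was graded. In males the Pearson r of log2 CPM with Cdk1 was 0.974 for Ccnb1, 0.926 for Ccna2, 0.883 for Ccnb2, 0.869 for Ccnf, 0.804 for Ccne1, 0.735 for Ccne2, 0.611 for Cdk2 and 0.494 for Ccnd1, and it was -0.594 for Ccnd2. The first 4 had a permutation p of 1e-05, the smallest that 100000 resamples give, or an adjusted p of 4.5e-05 over the 18 relations of both sexes. Spearman's rho was 0.924 for Ccnb1, 0.849 for Ccna2, 0.831 for Ccnb2 and 0.930 for Ccnf, with adjusted permutation p of 9e-05, 0.00018, 0.00036 and 9e-05. Without the 2 mice farthest from the median of Cdk1, r was 0.942, 0.838, 0.810 and 0.882 for these 4, but fell to 0.252 for Cdk2 and 0.270 for Ccnd1, whose relations rested on those mice. Over deviations from the treatment group means, r was 0.946 for Ccnb1, 0.876 for Ccna2, 0.814 for Ccnb2 and 0.804 for Ccnf, close to their values over all mice. It was lower in size for the other 5, at 0.564 for Ccne1, 0.483 for Cdk2, 0.393 for Ccne2, -0.345 for Ccnd2 and -0.01 for Ccnd1, so more of their relation lay between treatments. Of the 18 relations of both sexes, 14 passed an adjusted permutation p of 0.05 for r (all 9 in males and Ccna2, Ccnb1, Ccnb2, Ccnd2 and Ccne2 in females). The weakest were not stable. Ccnd1 in males (adjusted permutation p of 0.0497) missed the threshold with upper-quartile scaling (0.0513) and with a prior count of 0.5 (0.0501), as did Ccnd2 in females with upper-quartile scaling (0.0764). By Spearman's rho the adjusted permutation p was 0.248 for Ccnd1 and 0.0788 for Cdk2 in males and 0.0764 for Ccnd2 and 0.116 for Ccne2 in females, so these 4 missed it, while Ccne1 (0.0211) and Ccnf (0.0312) in females passed.

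In females the relation was weaker with all 18 libraries. There r was 0.802 for Ccnb1, 0.778 for Ccnb2 and 0.775 for Ccna2 (adjusted permutation p of 0.00018, 0.000405 and 0.00033), 0.505 for Ccne2, 0.447 for Ccnf, 0.437 for Ccne1, 0.331 for Cdk2, -0.04 for Ccnd1 and -0.518 for Ccnd2. Spearman's rho was 0.796, 0.791 and 0.690 for the first 3 (adjusted permutation p of 0.00054, 0.00054 and 0.00376). Without the 2 mice farthest from the median of Cdk1 their r was 0.734, 0.790 and 0.694, and within treatments 0.528, 0.420 and 0.391. Without the 4 high mitochondrial libraries, r over 14 females was 0.938 for Ccnb1, 0.915 for Ccnb2, 0.899 for Ccnf, 0.897 for Ccna2, 0.889 for Ccne1, 0.722 for Ccne2, 0.721 for Cdk2, -0.11 for Ccnd1 and -0.562 for Ccnd2. Ccnf and Ccne1 (adjusted permutation p of 0.000103 for each) and Cdk2 (0.00545) then passed, which they did not with all 18. The 5 genes outside the members whose lower r with Cdk1 of the 2 sexes was highest were Cep55 (0.892), Timp1 (0.865), Mmp12 (0.848), Prc1 (0.848) and Kif4 (0.846), over 18 mice of each sex.

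**Figure D5:**
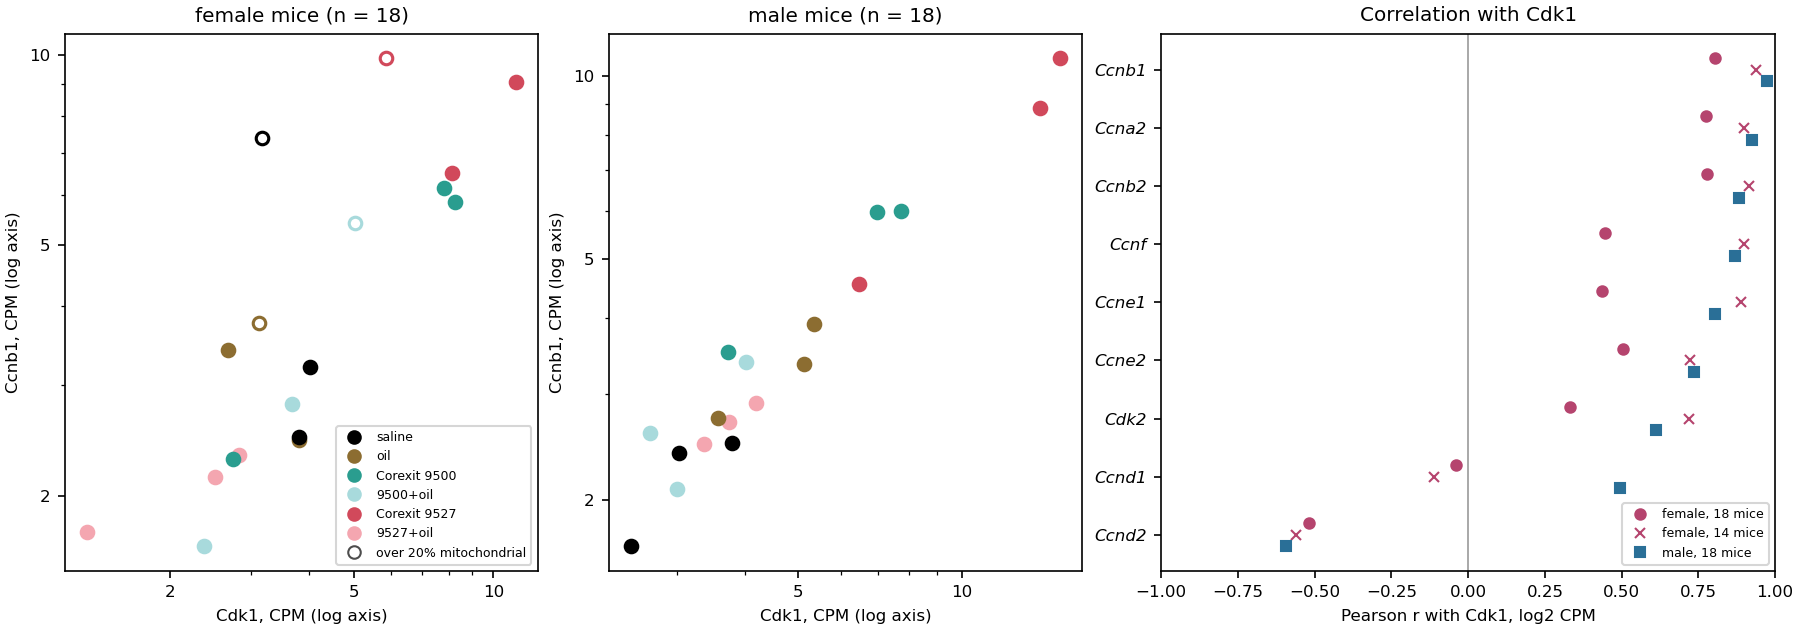
Ccnb1 against Cdk1 in each female (left) and male (middle) mouse, in CPM on log axes and coloured by treatment, and the Pearson r of each member with Cdk1 (right) for 18 females, 14 females without the high mitochondrial libraries, and 18 males. In males the points lie along 1 line (r of 0.974) with 2 of the 3 Corexit 9527 mice at its top, and in females the open circles lie above the line of the others.

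Other genes of the cell cycle are given for Corexit 9527 against saline over both sexes, where no list had a gene past an adjusted p of 0.05 in edgeR. Over all genes tested, 52.1% had a higher fitted level and 2.27% were higher at an unadjusted p under 0.05. Of 6 proliferation markers, 6 were higher and 5 at an unadjusted p under 0.05, led by Top2a, which untangles replicated DNA (1.59 ± 0.24, adjusted p of 0.0687), and Mki67, a marker of dividing cells (1.32 ± 0.33). Of 8 kinases, phosphatases and adaptors that act on CDKs, 8 were higher and 2 at that p, Cdc25c, the phosphatase that activates Cdk1 (2.03 ± 0.72), and Cks1b, a CDK adaptor (0.98 ± 0.41). Among 13 genes of RB and E2F, 12 were higher and 1 at that p, E2f8, a repressor of the E2F family (1.43 ± 0.36). Among 7 of the B-Myb, FoxM1 and MuvB group, 6 were higher and 1 at that p, Foxm1, the factor for mitotic genes (1.13 ± 0.43). Among 13 genes of cyclin destruction, 10 were higher and 1 at that p, Ube2c, which loads ubiquitin for the anaphase-promoting complex (1.31 ± 0.31). Of 6 CDK inhibitors 4 were higher, among them Cdkn1a (0.17 ± 0.28), and of the 4 other cell cycle cyclins and CDKs 2 were higher, with Cdk4 at 0.18 ± 0.42 and Cdk6 at -0.07 ± 0.13. None of these 10, nor of the 11 cyclins and 13 CDKs of transcription and other processes (6 and 8 higher), was at an unadjusted p under 0.05. With the high mitochondrial libraries left out, where 48.6% of genes were higher and 2.25% passed adjustment in edgeR, all 6 proliferation markers passed. So did 4 genes of RB and E2F (Rbl1, E2f1, E2f7 and E2f8), 2 of cyclin destruction (Cdc20 and Ube2c), Cks1b and Foxm1, all higher, and none of the CDK inhibitors or other cyclins and CDKs. The genes of RB and E2F that were higher then numbered 10, and those of cyclin destruction 7. In the direct test of 9527+oil against Corexit 9527, 4 of the 6 proliferation markers passed an adjusted p of 0.05 in edgeR (Mki67, Top2a, Birc5 and Tyms), all lower, where 0.579% of genes passed, and no gene of the other cell cycle lists did. Without Corexit 9527 mouse 11, where 6.82% of genes passed, all 6 markers did. With them passed 4 genes of cyclin destruction (Skp2, Cdc20, Fbxo5 and Ube2c), 3 of RB and E2F (Rbl1, E2f1 and E2f7), Cdc25c, Cks1b, Mybl2, Foxm1 and, among the transcription and other cyclins, Ccnc and Ccng1, all lower.

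Markers of other cells moved with some of these groups, and for the fits of all mice the same shares of all genes are the background. All 5 macrophage markers measured were higher with Corexit 9527 over both sexes, 2 of them at an unadjusted p under 0.05: Chil3 (1.32 ± 0.29) and Marco (0.80 ± 0.31). Their summed level was 585 to 636 CPM in saline females and 1135 to 2088 CPM in Corexit 9527 females, and 563 to 730 CPM in saline males and 770 to 1544 CPM in Corexit 9527 males, without overlap in either sex, and the female ranges are the same without the high mitochondrial libraries. It was 552 to 595 CPM in oil females and 843 to 893 CPM in oil males. With 9527+oil it was 396 to 425 CPM in females and 443 to 757 CPM in males, and with Corexit 9500 it was 625 to 1176 CPM and 629 to 830 CPM. The part of macrophages in the levels of the cyclins was not tested. Neutrophil markers were lower in 4 of 4, with S100a9 at an unadjusted p under 0.05 (-0.77 ± 0.30), erythroid markers in 4 of 4, and endothelium markers in 3 of 3, with 0 of the last 2 kinds at that p. Lung epithelium (3 higher, 3 lower), T cell (2 and 3) and B cell (2 and 2) markers had none at that p. Over all genes 0.596% were lower at that p. When the high mitochondrial libraries were left out, 4 of the 5 macrophage markers were higher and 3 passed adjustment in edgeR (Mrc1, Itgax and Chil3), all 3 endothelium markers were lower at an unadjusted p under 0.05 with Cldn5 past adjustment (-0.55 ± 0.12), 3 erythroid markers were lower at that p, and Scgb1a1 was lower at that p (-0.41 ± 0.11). In that fit 6.85% of all genes were lower and 8.84% higher at that p, and 2.25% passed adjustment. In 9527+oil against Corexit 9527, all 5 macrophage markers were lower (2 at that p) and all 5 neutrophil markers higher (2 at that p), where 8.76% of genes were lower and 5.44% higher at that p and 50.8% had a higher fitted level, and no cell type marker passed adjustment in edgeR. Without Corexit 9527 mouse 11, where 6.82% of genes passed, 3 macrophage markers passed, all lower (Mrc1, Itgax and Chil3), as did Cdh5, Cldn5 and the ciliated cell gene Foxj1, all higher. No neutrophil marker did, with 4 of 5 higher at an unadjusted p under 0.05, as were 11.9% of all genes. Of the thymocyte markers Ptcra was at 0.137 CPM or less and Rag1 at 0.316 CPM or less in every library.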

How the data were processed

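Left-lung RNA of 36 mice was sequenced by the authors (stranded mRNA libraries), quantified with Salmon on GRCm38 transcripts and summed to genes. The authors deposited the resulting estimated counts per gene as whole numbers, with no further normalization, separately for each sex. For each sex, 4 rows with a repeated gene name (0.0103% and 0.0128% of counts) were left out. Groups came from the labels. The members and gene lists were chosen with earlier results of these data known. The comparisons used edgeR 4.0.16 in R 4.3.3 (TMM scaling, its filter on low counts, quasi-likelihood test, Benjamini-Hochberg adjustment over all genes tested), with sex as a term where both sexes entered and a sex by treatment term for differences between sexes. A call is an adjusted p under 0.05. Standard errors came from the log2 fold change and its F statistic. CPM values were TMM scaled over the 18 mice of a sex, and correlations used log2 CPM with a prior count of 2 and permutation tests. Alternatives were DESeq2 1.42.0, limma 3.58.1 (voom with quality weights), other scalings and filters, all groups in 1 fit, and leaving out each mouse or the 4 libraries with over 20% mitochondrial counts. All members were named, with up to 3 genes of each list by smallest p (Corexit 9527 against saline), the 5 genes most like Cdk1, and lung markers by level. Genes named from fits without those 4 libraries, or for passing adjustment, were picked with their values known. The fits were tested on simulated data with the same spread for every gene and no outlying library, which does not cover the high mitochondrial libraries. Counts per library set the precision, and the p of a comparison rests on the spread between mice, with 3 mice a group and sex. The permutation tests shuffled the 18 mice of a sex across treatments. Their p does not separate a shared shift between treatments from variation within them.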

Additional observations from a re-analysis of the deposited data

How the results depend on the processing

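Counts of members past an adjusted p of 0.05 changed with the tool, the mice in the fit and the 4 libraries high in mitochondrial counts. For Corexit 9527 against saline over both sexes, edgeR's 0 members became 3 with DESeq2, 4 with all 6 groups in 1 fit, 7 with voom and 7 without those libraries, while all genes called went from 5 to 118, 107, 812 and 343. It stayed at 0 when any 1 mouse was left out. For 9527+oil against Corexit 9527, 3 became 5 with DESeq2, 7 with voom and 8 without those libraries, while all genes called went from 88 to 606, 1587 and 1050, and it became 0 to 8 when 1 mouse was left out. For Corexit 9527 against saline in males, 0 became 6 with DESeq2, 4 with all 6 groups in 1 fit, 1 with voom, 1 with no filter, 1 with at least 10 counts in every mouse, while all genes called went from 17 to 572, 284, 111, 70 and 89, and it became 0 to 3 when 1 mouse was left out. For Corexit 9500 against saline in males, 0 became 1 with DESeq2, where 43 genes were called. The log2 fold change of Ccne2 after Corexit 9500 over both sexes ran from -0.10 to 0.59 with 1 mouse left out, and that of Ccnd1 for 9527+oil against Corexit 9527 from -0.10 to 0.0117, so both changed sign. The cause of these changes was not tested. No paired analysis was possible because each mouse number occurs once within a sex, and the same number in the other sex is another mouse of the same treatment. Depth limits Ccne1 most, the member with the fewest counts over the 18 libraries of either sex.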
